A study of Saccharomyces cerevisiae with 4 samples.

Results

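The genes described here are 10 Saccharomyces cerevisiae genes of the tricarboxylic acid (TCA) cycle and of its supply and retrograde control, namely CIT1, CIT2, ACO1, IDH1, IDH2, KGD1, KGD2, FUM1, MDH1 and PYC1. They were chosen by systematic name from the deposited transcript annotation, and all 10 were found among its 6030 transcripts, of which 4928 are open reading frame transcripts. The strain carries the genotype Y40343 Ssl2-FRB::kanMX6. Ssl2 is the DNA translocase of the general transcription factor TFIIH, and in the anchor-away method rapamycin ties an FRB-tagged protein to an anchor that leaves the nucleus. Cells grown at 30 C in YPD, a rich glucose medium, were labelled with 5 mM 4-thiouracil for 6 min so that newly made RNA could be purified. There were 2 libraries without rapamycin (no rapa) and 2 with it (with rapa), all of the tagged strain. The labels give no rapamycin dose, no exposure time, no untagged strain and no statement of whether the strain resists rapamycin. Nothing in them ties a replicate to a culture of its own, so the p-values speak to the scatter among these 4 libraries, which could be technical. The comparison sets newly made RNA with rapamycin against that without it. Without an untagged strain, the removal of Ssl2 from the nucleus and any other effect of rapamycin cannot be separated. In bulk cultures, fewer cells making a transcript and less of it per cell cannot be told apart.

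The TCA cycle oxidises acetyl units in the mitochondrial matrix and supplies 2-oxoglutarate and oxaloacetate for amino acid synthesis. Budding yeast growing on glucose ferments and keeps many cycle genes low, and the Hap2/3/4/5 activator raises them when respiration is needed. In the retrograde response, damaged mitochondria or glutamate shortage send the Rtg1/Rtg3 activator to the nucleus, where it turns on CIT2 and the first steps of the cycle (CIT1, ACO1, IDH1 and IDH2). Inhibition of the TORC1 kinase by rapamycin also induces CIT2 in rapamycin-sensitive yeast.

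Upstream sequence is shown for the citrate synthase pair, whose peroxisomal member CIT2 is the classical retrograde target, and for FUM1 and MDH1, the member with the largest rise and the member with the lowest level per kb with rapamycin. Each is the 300 bases before the annotated transcript start in the R64 genome, 5′ to 3′ on the strand of the gene. Capitals mark GTCAC (the core of the R box bound by Rtg1/Rtg3), CCAAT (bound by the Hap complex), TATAAA and TATATA, each on either strand, and neighbouring matches can run together.
CIT1 (chrXIV:631162-631461, - strand): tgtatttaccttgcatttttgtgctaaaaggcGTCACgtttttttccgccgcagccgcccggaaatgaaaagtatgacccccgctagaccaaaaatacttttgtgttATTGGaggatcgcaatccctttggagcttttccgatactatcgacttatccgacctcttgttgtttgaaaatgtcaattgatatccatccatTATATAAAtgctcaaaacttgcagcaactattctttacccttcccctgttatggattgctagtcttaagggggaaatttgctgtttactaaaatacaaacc
CIT2 (chrIII:122389-122688, - strand): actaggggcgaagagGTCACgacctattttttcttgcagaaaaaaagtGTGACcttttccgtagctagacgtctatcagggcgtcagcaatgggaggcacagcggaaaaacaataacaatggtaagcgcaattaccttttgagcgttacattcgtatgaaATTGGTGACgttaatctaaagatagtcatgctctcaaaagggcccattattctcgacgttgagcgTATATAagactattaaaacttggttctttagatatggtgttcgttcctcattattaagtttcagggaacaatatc
FUM1 (chrXVI:47032-47331, + strand): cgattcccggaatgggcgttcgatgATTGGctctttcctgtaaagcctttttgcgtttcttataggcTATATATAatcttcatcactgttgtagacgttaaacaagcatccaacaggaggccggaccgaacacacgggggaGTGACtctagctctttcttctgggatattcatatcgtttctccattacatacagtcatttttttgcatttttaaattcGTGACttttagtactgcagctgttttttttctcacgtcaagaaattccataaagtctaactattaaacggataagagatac
MDH1 (chrXI:278742-279041, + strand): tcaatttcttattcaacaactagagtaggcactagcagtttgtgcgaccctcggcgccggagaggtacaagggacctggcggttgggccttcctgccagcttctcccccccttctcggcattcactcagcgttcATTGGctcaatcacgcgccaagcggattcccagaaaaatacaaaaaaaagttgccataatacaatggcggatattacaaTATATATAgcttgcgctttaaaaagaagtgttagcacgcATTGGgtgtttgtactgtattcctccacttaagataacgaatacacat

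CIT2 held 3 GTCAC matches, starting at -285, -252 and -136 from the transcript start, and the last of these shared a base with its CCAAT match at -140. FUM1 held 2 GTCAC matches, CIT1 and IDH1 held 1 each, and the other 6 members held none. GTCAC occurred in 4 of 10 members and in 27.1% of 4928 open reading frame promoters of the same length. CCAAT occurred in 7 of 10 members, against 42.6% of promoters. TATATA occurred in all 10 members, against 38.0% of promoters, while TATAAA occurred in 4 members, against 46.3%. The TATATA and TATAAA matches overlapped in CIT1 and IDH2. These counts describe letters in 1 window and are not evidence of binding. Transcripts of the opposite strand start 45 bases upstream of CIT1 (YNR001W-A) and 139 bases upstream of FUM1 (XUT_16R-25). Matches in those windows may therefore belong to either transcript.

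Each library held 11441998 to 32435994 reads on features, fewer with rapamycin than without. A row with reads outside every feature held 33.1% to 33.7% of reads without rapamycin and 49.95% to 50.5% with it. In with rapa replicate 2 that row held 12685766 reads, only 3 fewer than the 12685769 reads on features. Nothing in the sources used here accounts for so close a match, and the row entered no library size and no test. Across genes, which are not independent, log2 CPM correlated at r = 0.992 between replicates without rapamycin and 0.968 with it. No member was limited by depth, with 934 to 24645 reads per member and library.

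With rapamycin the 10 genes did not move in one direction. FUM1, PYC1 and KGD2 rose, CIT2 and MDH1 fell, and the other 5 (CIT1, ACO1, IDH1, IDH2 and KGD1) did not pass the test. Calls came from the quasi-likelihood test of edgeR at a threshold of 0.05, adjusted by Benjamini-Hochberg across 5707 features left by a filter on low counts. Levels are in CPM, counts scaled to a common library size. All 10 members were tested. Of all tested features, 46.0% were called, 19.3% as higher and 26.7% as lower, so 5 called members of 10 was near the background. The median log2 fold change was -0.11 over the members, -0.03 over all features and -0.14 over open reading frames. The groups did not overlap for 8 members, 4 higher and 4 lower, against 74.2% of all features (34.1% higher and 40.1% lower). All changes are relative to the bulk of genes, on which the scaling by TMM (trimmed mean of M values) centres the fold changes. A change shared by most genes is therefore not seen. Leaving out either library without rapamycin lowered the number of calls over all features, and leaving out either library with it raised that number. A call lost without a no rapa library therefore need not be particular to its gene.

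**Figure D1:**
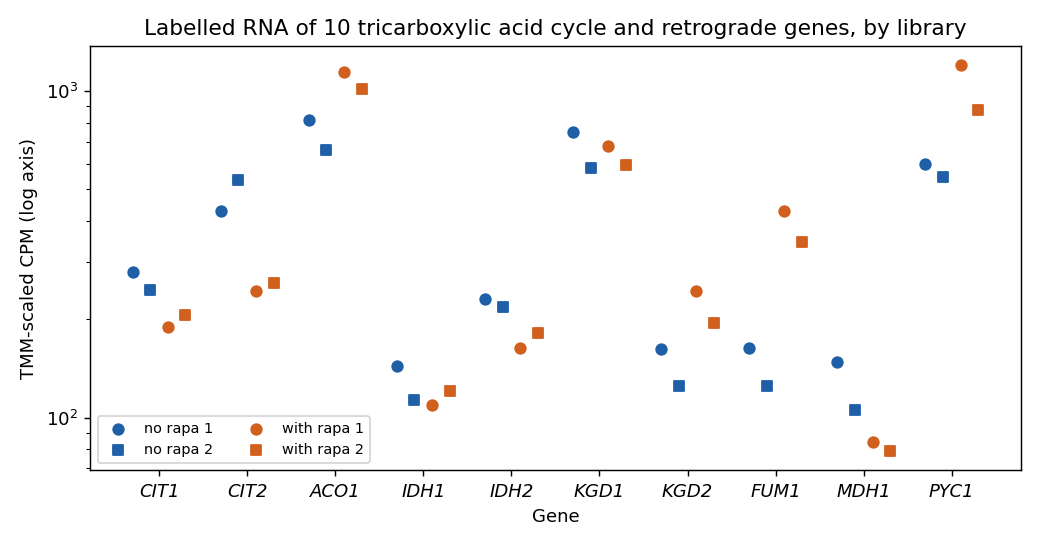
TMM-scaled CPM (log axis) of each gene in each library, circles for replicate 1 and squares for replicate 2. FUM1 shows the clearest separation upward, with 345.6 and 429.3 CPM with rapamycin against 125.2 and 163.1 CPM without it, and IDH1 and KGD1 overlap between groups.

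Of the citrate synthase pair, the peroxisomal isozyme gene fell with rapamycin and the mitochondrial one did not pass the test. Positions here and below are those of the deposited transcripts on R64. CIT1 (YNR001C, chromosome XIV, 629432 to 631161, - strand) encodes the mitochondrial enzyme that opens the cycle, and CIT2 (YCR005C, chromosome III, 120841 to 122388, - strand) its peroxisomal isozyme of the glyoxylate cycle. CIT2 measured 428.4 and 532.9 CPM without rapamycin and 244.2 and 258.3 CPM with it. Both libraries with rapamycin lay below both without it, which is 1.91-fold lower or -0.94 ± 0.19 (SE) on the log2 scale (adjusted p = 0.00167, edgeR quasi-likelihood test). CIT1 measured 279.8 and 245.8 CPM without rapamycin and 189.4 and 206.7 CPM with it. Its groups did not overlap either, but the log2 fold change of -0.41 ± 0.17 had an adjusted p of 0.0649 by the same edgeR test and was not called. Per kb of transcript, CIT2 was 1.71 and 2.42 times the level of CIT1 without rapamycin and 1.44 and 1.40 times with it. The mean log2 ratio moved by -0.52, and the exact permutation test (two-sided) gave p = 0.333, the smallest that 2 libraries against 2 allow.

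The steps from citrate to 2-oxoglutarate showed no call. ACO1 (YLR304C, chromosome XII, 734965 to 737587, - strand) encodes aconitase, which converts citrate to isocitrate. IDH1 (YNL037C, chromosome XIV, 557794 to 559115, - strand) and IDH2 (YOR136W, chromosome XV, 580142 to 581513, + strand) encode the subunits of the NAD-dependent isocitrate dehydrogenase. ACO1 measured 818.5 and 661.7 CPM without rapamycin and 1149 and 1018 CPM with it. The groups did not overlap, but the log2 fold change of 0.55 ± 0.23 (SE) had an adjusted p of 0.0649 (edgeR). It passed in 5 of 10 alternative settings. IDH2 measured 230.1 and 217.6 CPM without rapamycin and 163.6 and 182.1 CPM with it, a log2 fold change of -0.37 ± 0.16 (adjusted p = 0.0788, edgeR). IDH1 measured 144.1 and 113.1 CPM without rapamycin and 109.5 and 120.3 CPM with it, so its groups overlapped (log2 fold change -0.16 ± 0.17). The subunit genes IDH2 and IDH1 had a ratio per kb of 1.54 and 1.85 without rapamycin and 1.44 and 1.46 with it.

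The subunit genes of the 2-oxoglutarate dehydrogenase complex had different calls. KGD1 (YIL125W, chromosome IX, 122404 to 125996, + strand) encodes its dehydrogenase (E1) and KGD2 (YDR148C, chromosome IV, 753391 to 755089, - strand) its succinyltransferase (E2). KGD2 measured 162.2 and 125.0 CPM without rapamycin and 244.0 and 194.8 CPM with it, a rise of 0.61 ± 0.19 (SE) on the log2 scale (edgeR adjusted p = 0.0182), and its groups did not overlap. Without no rapa replicate 2 that call was lost (log2 fold change 0.42, adjusted p = 0.262, edgeR). KGD1 measured 748.4 and 582.6 CPM without rapamycin and 680.4 and 592.4 CPM with it, with overlapping groups and a log2 fold change of -0.06 ± 0.21. The ratio of KGD2 to KGD1 per kb was 0.458 and 0.454 without rapamycin and 0.758 and 0.695 with it. That ratio was higher in both libraries with rapamycin, by 0.67 on the log2 scale (exact permutation test, two-sided, p = 0.333, the smallest possible). LPD1, which encodes the dihydrolipoamide dehydrogenase (E3) that this complex shares with pyruvate dehydrogenase, rose by a log2 fold change of 0.66 ± 0.19, a call also lost without no rapa replicate 2 (adjusted p = 0.249, edgeR).

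The genes of the last steps of the cycle, FUM1 and MDH1, had opposite calls. FUM1 (YPL262W, chromosome XVI, 47332 to 48843, + strand) encodes fumarase, which makes malate from fumarate in the mitochondrion and also works outside it. It measured 163.1 and 125.2 CPM without rapamycin and 429.3 and 345.6 CPM with it. The rise was 2.69-fold, or 1.43 ± 0.20 (SE) on the log2 scale (edgeR adjusted p = 0.000118), and placed FUM1 at percentile 94.4 of open reading frames by fold change. MDH1 (YKL085W, chromosome XI, 279042 to 280162, + strand) encodes the mitochondrial malate dehydrogenase, which turns malate into oxaloacetate. It measured 147.7 and 105.6 CPM without rapamycin and 84.5 and 79.0 CPM with it, a log2 fold change of -0.63 ± 0.19 (adjusted p = 0.0166, edgeR). Both libraries with rapamycin were below both without it, but without no rapa replicate 1 the call was lost (log2 fold change -0.38, adjusted p = 0.290, edgeR).

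PYC1 rose. Its call was lost when either library without rapamycin was left out, a step that also lowered the number of calls over all features. PYC1 (YGL062W, chromosome VII, 385155 to 388792, + strand) encodes a cytosolic pyruvate carboxylase, which refills oxaloacetate from pyruvate. PYC1 measured 598.8 and 544.2 CPM without rapamycin and 1201 and 873.2 CPM with it, a rise of 0.86 ± 0.23 (SE) on the log2 scale (edgeR adjusted p = 0.00942). The adjusted p was 0.0658 without no rapa replicate 1 and 0.115 without no rapa replicate 2 (edgeR), with log2 fold changes of 0.92 and 0.78. Of the 50-base windows of its transcript, 8.22% occur elsewhere in the R64 genome, in its paralog PYC2, while the other 9 members had 0 such windows. The 2 PYC genes may therefore have exchanged reads. PYC2 measured 601 ± 161 CPM without rapamycin and 967 ± 261 CPM with it (SD, n = 2) and rose by a log2 fold change of 0.69 ± 0.26 (adjusted p = 0.0484, edgeR). That call was lost with no filter on low counts (0.0558), without no rapa replicate 2 (0.417) and without with rapa replicate 1 (0.164).

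**Figure D2:**
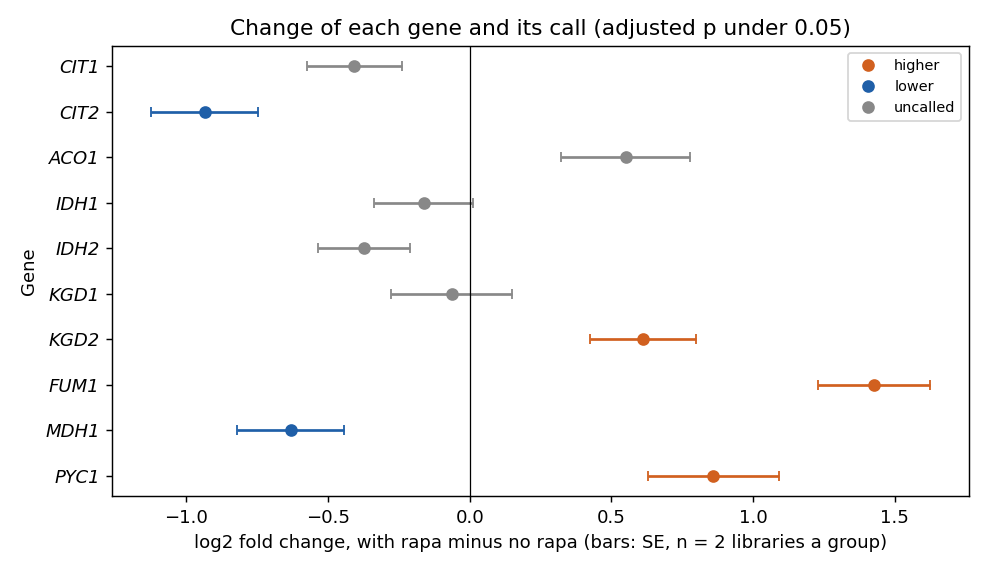
Log2 fold change of each gene, with rapa minus no rapa, with its SE (2 libraries a group) and coloured by call. The changes run from -0.94 for CIT2 to 1.43 for FUM1, and the bars of KGD1 and IDH1 reach 0.

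Per kb of transcript, the order of the members differed between groups. Without rapamycin the mean level was 310.5 ± 47.7 CPM per kb for CIT2 and 282 ± 42.3 for ACO1 (SD, n = 2), a difference within their spread, and either was highest in 1 library. KGD2 was lowest in both of those libraries, at 84.5 ± 15.5 CPM per kb, next to FUM1 at 95.3 ± 17.7 and IDH1 at 97.3 ± 16.6, which lay within their spread. With rapamycin ACO1 led at 413 ± 35.4 CPM per kb, followed by PYC1 at 285 ± 63.8 and FUM1 at 256 ± 39.2, with these last genes within their spread. MDH1 was lowest in both libraries with rapamycin, at 72.9 ± 3.4 CPM per kb. All 10 members lay above the median open reading frame per kb without rapamycin. FUM1 moved from percentile 69.1 to 91.2 of open reading frames by level per kb, and CIT2 from 93.7 to 84.8.

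The members' transcripts were 1121 (MDH1) to 3638 (PYC1) bases long, and 7 of 10 were longer than the median open reading frame transcript. Across 4910 open reading frames, fold change had a Spearman correlation of -0.37 with length and -0.15 with level, given as a description since genes share libraries. PYC1, the longest member at percentile 97.7 of length, rose, and MDH1, the shortest at percentile 34.5, fell. The other called members were FUM1 at 54.2 and KGD2 at 61.9, which rose, and CIT2 at 55.7, which fell. KGD1, at 97.3, was uncalled. The part of length in these changes was not tested. Every member has 1 coding segment in the R64 annotation and so no intron in its reading frame. IDH1, KGD1 and FUM1 overlap a transcript of the opposite strand by 103, 121 and 108 bases. MDH3, described next, lies over its whole 1188 bases under the noncoding SUT044 of the opposite strand and still had counts, so the counting kept strands apart there.

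The rest of the pathway was read from 8 lists with 54 genes, of which 50 had a transcript in the annotation and were tested. The lists were chosen with earlier results of these data known. Of these, 15 were higher, 11 lower and 24 uncalled, against 46.0% called over all features (19.3% higher and 26.7% lower). Those shares, and the median log2 fold change of -0.03 over all features, are the background for each list below. Of the 26 called, 8 were called in all 10 alternatives (IDP1, MDH2, DIC1, YHM2, LST8, ATO3, HAP4 and GDH1). RTG1, GRR1, HAP1 and GLT1 were not analysed here.

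**Figure D3:**
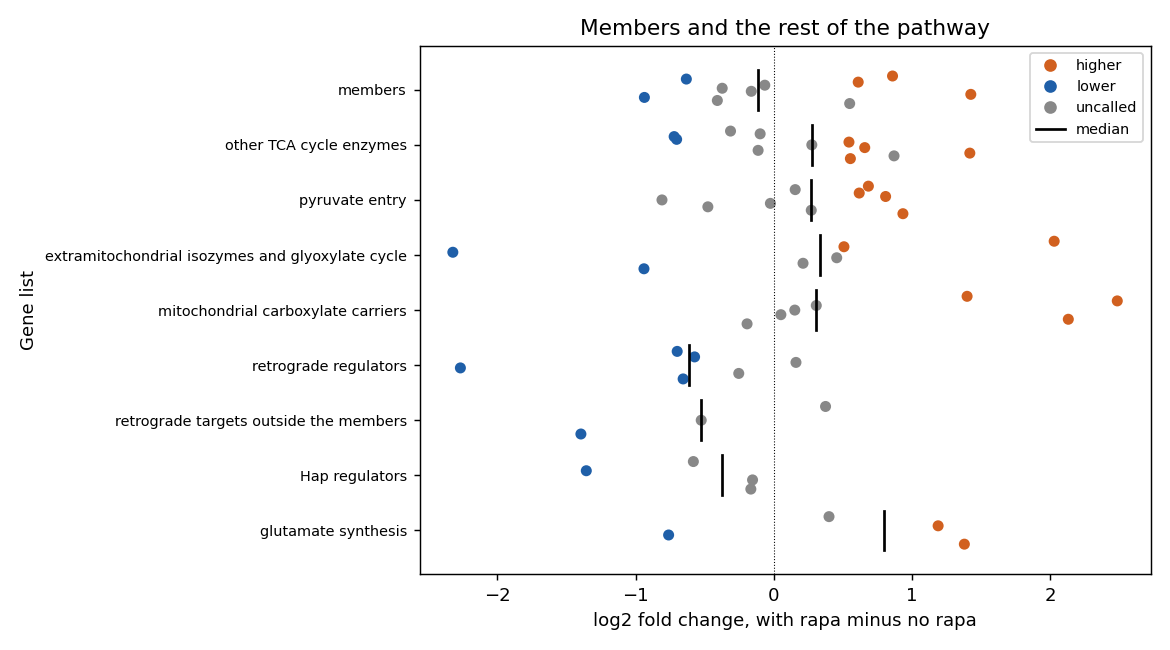
Log2 fold change, with rapa minus no rapa, of every tested gene in each list, coloured by call, with the list's median as a black line. The list medians run from -0.61 for retrograde regulators to 0.80 for the glutamate synthesis list, which also holds GDH2 and GLN1.

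Of 11 other TCA cycle enzymes, 4 were higher, 2 lower and 5 uncalled, with a median log2 fold change of 0.28. IDP1, the mitochondrial NADP-dependent isocitrate dehydrogenase gene, went from 196 ± 47.8 to 524 ± 16.8 CPM (SD, n = 2), which is 1.42 ± 0.21 (SE) on the log2 scale (edgeR adjusted p = 0.000175). The succinate dehydrogenase genes SDH1 (-0.70 ± 0.22) and SDH2 (-0.72 ± 0.17) fell, though both calls were lost without no rapa replicate 1 (adjusted p of 0.254 and 0.0602, edgeR), and SDH1 was also uncalled without with rapa replicate 2 (0.103). The minor citrate synthase gene CIT3 measured 4.61 ± 0.743 and 8.41 ± 3.96 CPM and was uncalled.

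Of 9 genes of pyruvate entry, 4 were higher and 5 uncalled, with a median log2 fold change of 0.27. The 4 higher genes were PYC2 and the pyruvate dehydrogenase subunit genes PDA1 (0.81 ± 0.24), PDB1 (0.62 ± 0.20) and LAT1 (0.94 ± 0.23). Without no rapa replicate 2 all 4 calls were lost, with edgeR adjusted p of 0.273, 0.374 and 0.101 for PDA1, PDB1 and LAT1. Of 7 mitochondrial carboxylate carriers, 3 were higher and 4 uncalled. The dicarboxylate carrier gene DIC1 went from 16.0 ± 2.04 to 70.1 ± 5.28 CPM (2.13 ± 0.21) and the citrate and oxoglutarate carrier gene YHM2 from 62.4 ± 9.29 to 165 ± 30.8 CPM (1.40 ± 0.19). The succinate-fumarate carrier gene SFC1 was low, at 0.964 ± 0.800 and 5.40 ± 3.80 CPM, and lost its call without either library without rapamycin (adjusted p of 0.313 and 0.0551, edgeR).

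The genes of the malate dehydrogenase isozymes outside the mitochondrion had opposite calls. MDH2, the cytosolic isozyme of gluconeogenesis, fell from 165 ± 14.5 to 32.9 ± 4.61 CPM (SD, n = 2), which is -2.32 ± 0.18 (SE) on the log2 scale (edgeR adjusted p = 5.65e-06). MDH3, the peroxisomal isozyme, rose by 0.51 ± 0.18, a call lost when any of 3 libraries was left out (adjusted p of 0.130, 0.259 and 0.0566, edgeR). Among the other glyoxylate cycle genes, the isocitrate lyase gene ICL1 fell (-0.94 ± 0.25), while the malate synthase gene MLS1 rose (2.03 ± 0.66) from 1.30 ± 0.616 to 5.31 ± 1.12 CPM. That of ICL1 did not pass with library totals only (0.0525). Both of these calls were lost without no rapa replicate 1 (adjusted p of 0.0848 and 0.364, edgeR), and that of MLS1 also without no rapa replicate 2 (0.145). The cytosolic isocitrate dehydrogenase gene IDP2 measured 32.7 ± 4.92 and 37.9 ± 9.80 CPM and was uncalled.

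Of 6 tested retrograde regulators, 4 were lower and 2 uncalled, against 26.7% lower over all features. Their median log2 fold change was -0.61, taken over genes that activate the response and genes that restrain it. LST8, which encodes a TORC1 subunit that restrains the retrograde response, fell from 636 ± 46.9 to 132 ± 0.498 CPM (SD, n = 2; -2.27 ± 0.19). RTG3, a subunit of the activator, fell by 0.70 ± 0.18 on the log2 scale, RTG2, a sensor that releases the activator, by 0.57 ± 0.18 and the 14-3-3 gene BMH1 by 0.66 ± 0.18. Calls other than that of LST8 were lost without no rapa replicate 2 (adjusted p of 0.131, 0.128 and 0.0853 for RTG3, RTG2 and BMH1, edgeR). RTG2 was uncalled with RLE (relative log expression) factors (0.0644). RTG2 and BMH1 were also uncalled without no rapa replicate 1 (0.118 and 0.0718), and RTG2 without with rapa replicate 2 (0.156). The inhibitor gene MKS1 measured 162 ± 20.8 and 181 ± 43.1 CPM and was uncalled. Of 3 retrograde targets outside the members, the ammonium exporter gene ATO3 fell from 93.2 ± 3.13 to 35.5 ± 3.58 CPM (-1.40 ± 0.18). DLD3, a dehydrogenase gene chosen after its values were seen, measured 863 ± 46.6 and 600 ± 8.40 CPM and was uncalled (adjusted p = 0.0535, edgeR). Its groups did not overlap, with a log2 fold change of -0.52 ± 0.21, and it was called lower in 4 of 10 alternatives, namely DESeq2 (adjusted p = 0.0355), no filter on low counts (0.0478, edgeR), the replicate block (0.00885) and without with rapa replicate 1 (0.0301). PDH1, the third, was uncalled.

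HAP4, which encodes the regulated activating subunit of the Hap complex, fell from 413 ± 8.08 to 161 ± 12.1 CPM (SD, n = 2), which is -1.36 ± 0.17 (SE) on the log2 scale (edgeR adjusted p = 7.24e-05), and the other 3 tested Hap genes were uncalled. Glutamate synthesis draws on 2-oxoglutarate. Of 4 tested genes listed under it, including GDH2 and GLN1, which use glutamate, 2 were higher, 1 lower and 1 uncalled. The NADP-dependent glutamate dehydrogenase gene GDH1 rose from 505 ± 161 to 1313 ± 116 CPM (1.38 ± 0.26), and GDH2, which breaks glutamate down, fell (-0.76 ± 0.21), a call lost without no rapa replicate 1 (adjusted p = 0.246, edgeR). GDH3, the minor isozyme, rose by 1.19 ± 0.45, a call lost without either library without rapamycin (0.310 and 0.277), with library totals only (0.0628) and with no filter on low counts (0.0506).

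**Figure D4:**
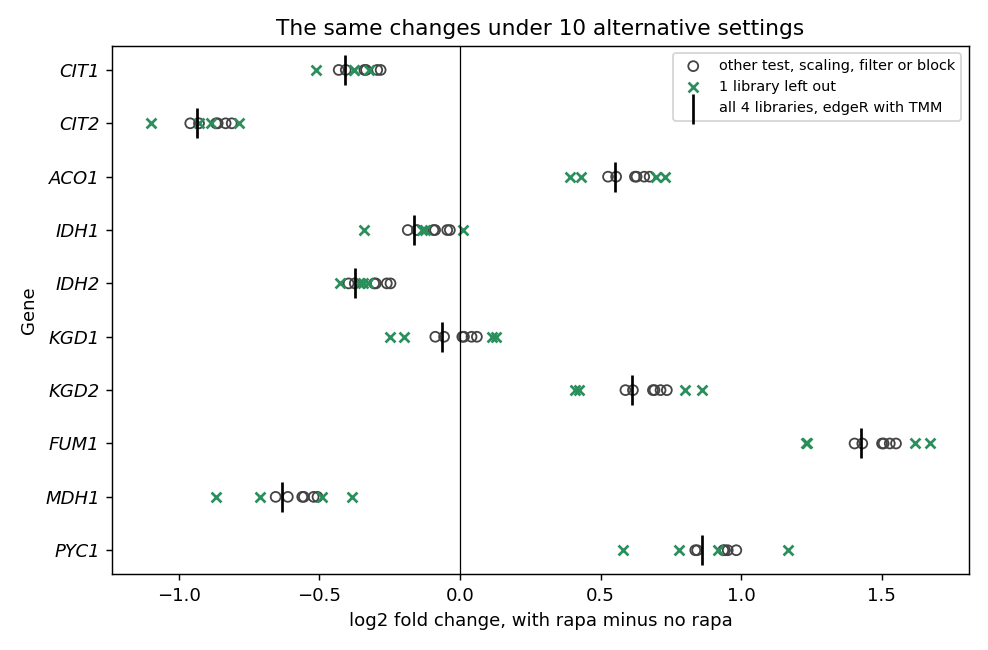
Log2 fold change of each member under 10 alternative settings, with the value from all 4 libraries as a black bar, other tests, scalings, filters or a block as open circles and fits with 1 library left out as crosses. CIT2 (-1.10 to -0.78) and FUM1 (1.23 to 1.67) stay on their side of 0, and KGD1 (-0.25 to 0.13) crosses it.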

How the data were processed

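Newly made, 4-thiouracil-labelled RNA was sequenced in 4 libraries (2 per group). The deposited values are raw read counts per annotated transcript, one file per library, with the annotation's coordinates in a further file. STAR 2.3.0, SAMtools and HTSeq are named as tools per the submitters' processing notes, which list sacCer3 and R64 as builds and give neither role nor order. The strand setting and alignment filters are not given in the sources used here. All 4842 reference reading frames matched by name lay inside their deposited transcript on R64, so R64 sequence was used. Spike-in counts were not analysed here, so no absolute change was estimated.

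In R 4.3.3, edgeR 4.0.16 tested the counts by its quasi-likelihood F-test (two-sided) after filterByExpr at its defaults and TMM scaling, with Benjamini-Hochberg adjustment across 5707 features. CPM are TMM-scaled, and SE is the absolute log2 fold change over the square root of F. Rows naming no feature were left out. They held 33.1% to 50.5% of reads outside features and at most 0.0930% ambiguous reads. The row of multiply aligned reads was 0 in every library, so exchange between paralogs is unknown. Replicates differed beyond sampling noise (chi-square per degree of freedom of 82.3 and 66.6). Simulated counts for this comparison (5707 genes) had 100 genes moved by 1 and 100 by 2 on the log2 scale, and 66% and 87% of them were recovered, with 6 false calls. The simulation moved far fewer genes than the 46.0% called in the data, equally up and down, with dispersions taken from the trend. Its rates therefore need not hold for the data. Alternatives were DESeq2 1.42.0, other scalings, no filter, open reading frames alone, a replicate block and leaving out each library.

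Named genes were all members, their isozymes, the main regulators and up to 4 called genes per list with the smallest adjusted p. The result of 1 of these genes is not reported here. The members and lists were chosen with earlier results of these data known.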

Additional observations from a re-analysis of the deposited data

Results flagged for a closer look

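Reads outside every feature, which no comparison uses, made up 50.5% and 49.95% of reads in with rapa replicates 1 and 2, above the 33.7% and 33.1% without rapamycin. The share in with rapa replicate 2 rests on a row of 12685766 reads that differs by 3 from the library's 12685769 feature reads, and whether that row is as the counting program wrote it was not resolved, so nothing is drawn from it.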

How the results depend on the processing

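Of the 5 called members, 2 (CIT2 and FUM1) were called in all 10 alternatives. Leaving out 1 library gave 1588 to 3312 changed features against 2623, 3 to 6 changed members against 5, and 12 to 31 changed genes of the 8 lists against 26. Each such fit has a lone library in a group, which is assumed to vary like the other group. The number of changed features was lower when a no rapa library was left out and higher when a with rapa library was. KGD1, uncalled throughout, changed sign from -0.06 to 0.0083 with DESeq2, 0.014 with RLE factors, 0.041 with library totals only and 0.060 with open reading frames alone, and ran from -0.25 to 0.13 with 1 library left out. IDH1 ran from -0.34 to 0.0093 in the same fits, IDP2 from -0.11 to 0.55 and MKS1 from -0.14 to 0.48. The cause was not tested. Library totals only moved the median of all features from -0.03 to 0.07. With the replicate number as a block, 2970 features, 7 members (CIT1, adjusted p = 0.0338, and ACO1, 0.00631, in addition, edgeR) and 28 list genes (among them DLD3, 0.00885) were called. The numbers are not stated to pair libraries, and deviations of same-numbered libraries correlated at 0.23 across features, over only 2 pairs.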
